A study of Drosophila melanogaster x Drosophila sechellia and Drosophila melanogaster and Drosophila sechellia with 12 samples.

Results

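Of 1058 adenosines assayed for RNA editing in fly heads, 170 were edited to nearly the same level in Drosophila melanogaster and in its island relative Drosophila sechellia, and these 170 sites are described here. They were chosen on the parental libraries alone. Each had at least 50 reads of its own species in each of the 4 parent libraries, a pooled editing level from 5% to under 95% in both species, and pooled levels less than 5 percentage points apart. The limit is in absolute points, so a weakly edited site may pass it with a large relative gap. The parental likeness is a property of the choice and not a result. What the choice did not use is the behaviour of the same sites in 3 other groups, namely the mixed parents, the F1 hybrids and the F1 hybrids with a mutant Adar.

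The 12 libraries were made by mmPCR-seq (microfluidic multiplex PCR and sequencing), in which many loci are amplified together from cDNA, from heads of adult females. The groups were D. melanogaster (n = 2), D. sechellia (n = 2), a mixture of both parents (n = 2), D. melanogaster x D. sechellia F1 hybrids (n = 3), and F1 hybrids whose D. melanogaster parent was labelled an Adar mutant, called Adar F1 (n = 3). The labels name neither the mutant allele nor the stock that carried it, and they do not call the D. sechellia Adar gene of these hybrids mutant. Whether replicates were separate cultures is unstated, and p-values therefore reflect only how far these libraries differ, possibly for technical reasons. Every read had been assigned by the authors to the sequence of 1 species, which gave counts of A and G reads for each allele. Sites are named by position in the dm3 build since no gene name accompanies them, and whether they are exonic, intronic or in a UTR was not analysed here.

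Adar (adenosine deaminase acting on RNA) binds double-stranded RNA and converts adenosine to inosine, which is read as G after reverse transcription. The level reported here is the share of G, in percent, of all A and G reads covering an adenosine. In flies, editing is strong in the nervous system, where many edited messages encode ion channels and proteins of synaptic release. How much a site is edited depends on the RNA fold around it and on the enzyme. In a hybrid both alleles are exposed to the same enzyme, whereas the sequence around a site stays with its allele.

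Of the 1058 sites, 891 were covered in both species and 344 of these lay from 5% to under 95% in both. The 170 sites edited alike were close to an even split of the 344, the other 174 differing by 5 points or more. These others are called diverged below, a label for the pooled gap that rests on no test between the species. Closest to the limit inside were 3L 9826464 (6.38% in D. melanogaster and 11.4% in D. sechellia), 3L 16104005 (7.28% and 12.3%) and 3R 3848991 (22.7% and 17.8%). Just outside were 2L 9717707 (33.9% and 38.9%), X 13607573 (16.2% and 21.2%) and 2L 11159902 (27.8% and 22.7%). A further 408 covered sites were within 5 points but under 5% in a species, the nearest at 4.96%. Only 10 were left out for a level of 95% or more, the nearest at 97.6%.

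The chosen sites spanned nearly the whole range of editing. Their mean parental level had a median of 19.4% (interquartile range 9.81% to 41.2%) and ran from 5.44% to 93.0%. It was from 5% to 10% at 44 sites, from 10% to 20% at 43, from 20% to 50% at 47, from 50% to 80% at 26 and from 80% to 95% at 10. The most strongly edited were 3L 2941426 (91.2% in D. melanogaster and 94.8% in D. sechellia), 2L 16174153 (91.4% and 94.3%) and 2R 7335112 (91.6% and 91.0%). The least edited were 3L 2925287 (5.64% in D. melanogaster and 5.24% in D. sechellia), 2R 20802389 (5.72% and 5.23%) and 2L 8177947 (5.11% and 6.40%). D. sechellia was the higher species at 79 sites and D. melanogaster at 91, and the median size of the gap was 2.15 points, with 36 sites under 1 point apart.

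This parental gap was held under 5 points by the choice. Differences between replicates of 1 species had no such limit, so the sizes are not compared. The 2 libraries of D. melanogaster differed by a median of 1.98 points at these sites and those of D. sechellia by 2.78 points. They stood over 5 points apart at 20 sites in D. melanogaster and at 43 in D. sechellia, and 115 of the 170 sites had both pairs of replicates within 5 points. At 2L 8201337, for example, the D. sechellia libraries read 10.1% and 31.6% and the D. melanogaster libraries 20% and 20.6%. The D. sechellia libraries thus lay on either side of D. melanogaster there. At X 3847511 the D. sechellia libraries read 5.56% and 22.9% against 19.6% and 23.9% in D. melanogaster, 1 of them well below the other libraries. At both sites the pooled levels stayed close although the D. sechellia replicates did not.

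The sites lay on every assayed arm, 2L holding 28, 2R 44, 3L 34, 3R 42, chromosome 4 holding 1 and X 21. The 174 others of the same range were distributed as 25, 40, 28, 35, 4 and 42. X thus held 12.4% of the sites edited alike, 24.1% of the others and 18.7% of all covered sites, a description that was not tested. Joined to neighbours within 1000 bases, the 1058 sites formed 309 clusters, of which 103 held a site edited alike. A single one was found in 61 clusters, while 42 clusters held 109 of the 170, up to 7 each.

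Some sites edited alike lay close to diverged sites, a description that was not tested. In 41 clusters, sites edited alike lay beside sites from 5% to 95% that differed by 5 points or more, which involved 82 of the 170, and 32 of the 170 had such a diverged neighbour within 10 bases. At 2L 11796345 the species stood at 11.9% and 9.83% (D. melanogaster first), while 1 base away 2L 11796346 stood at 30.2% and 5.92%. The site 3L 9826469 stood at 74.9% and 77.0% beside 3L 9826470 at 10.2% and 21.8%. Other adjacent neighbours were barely outside the limit, such as X 13607573 (gap of 5.07 points) beside X 13607572 and 3L 4590708 (5.32 points) beside 3L 4590709. Another site edited alike lay within 10 bases of 54 of the 170, and only 18 were alone in their cluster.

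Library totals ran from 251870 to 398284 reads, and the sites edited alike had a median of 272 reads per library, against 255 over all sites. All 170 had at least 50 reads in every mixed-parent and F1 library, but only 127 in every Adar F1 library, where 24 had no reads at all. On both alleles, 50 reads in every library were reached at 128 sites in the mixed parents, 125 in F1 and 88 in Adar F1. The D. melanogaster allele supplied a median of 49.0%, 54.5% and 53.3% of their reads in these groups. The profile of coverage over sites differed with the genotype. Its correlation was 0.443 to 0.528 for pairs of 1 F1 and 1 Adar F1 library, but 0.899 to 0.977 for 2 F1 libraries and 0.986 to 0.993 for 2 Adar F1 libraries. Any batch behind this and the Adar genotype cannot be told apart. In libraries of 1 species, 0.418% to 0.913% of the reads at these sites had been assigned to the other species. PCR reads without molecular identifiers are not independent molecules, and limits set by counts cover counting error only.

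Averaged over the 127 sites covered in every library, editing was lower in Adar F1 than in the other groups. The mean level was 27.2% and 27.5% in the D. melanogaster libraries and 26.4% and 28.0% in those of D. sechellia. It was 26.1% and 26.9% in the mixed parents, and 27.2%, 25.9% and 26.3% in F1. The Adar F1 libraries read 24.9%, 22.9% and 23.2%, all below every other library. Group means were 27.3% ± 0.197 (SD, n = 2), 27.2% ± 1.14 (n = 2), 26.5% ± 0.553 (n = 2), 26.4% ± 0.669 (n = 3) and 23.7% ± 1.12 (n = 3). The 133 covered sites labelled diverged averaged 35.7% ± 1.68 in F1 and 31.2% ± 2.32 in Adar F1. These averages carry no test. A level in whole heads is an average over cell types, so a change of editing in each cell and a change in which cells supply the RNA cannot be told apart.

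The steadiest sites, ranked by the range of group means in points, moved little in total level. A range in points favours weakly edited sites. Between alleles in Adar F1, 2L 9717614 and 3R 9518140 were nevertheless called, as given below. At 2L 9717614, among the most strongly edited, the levels were 90.4% and 90.4% in D. melanogaster, 91.2% and 90.0% in D. sechellia, 88.0% and 91.2% in the mixed parents, 89.0%, 88.7% and 89.3% in F1 and 89.8%, 89.1% and 89.9% in Adar F1. All 12 libraries thus fell within a few points, and the groups overlapped. The other steady sites were edited weakly, with group means from 4.70% to 6.26% at 3L 2925287, from 6.12% to 7.71% at 2R 8336282, from 5.83% to 7.70% at 3R 9518140 and from 12.6% to 14.6% at 3L 4590704. At the opposite end stood X 19228498, 3L 9826469, 2L 8201337, 3L 7173538 and 2R 8336159, and at each of these the Adar F1 libraries lay apart from F1.

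**Figure D1:**
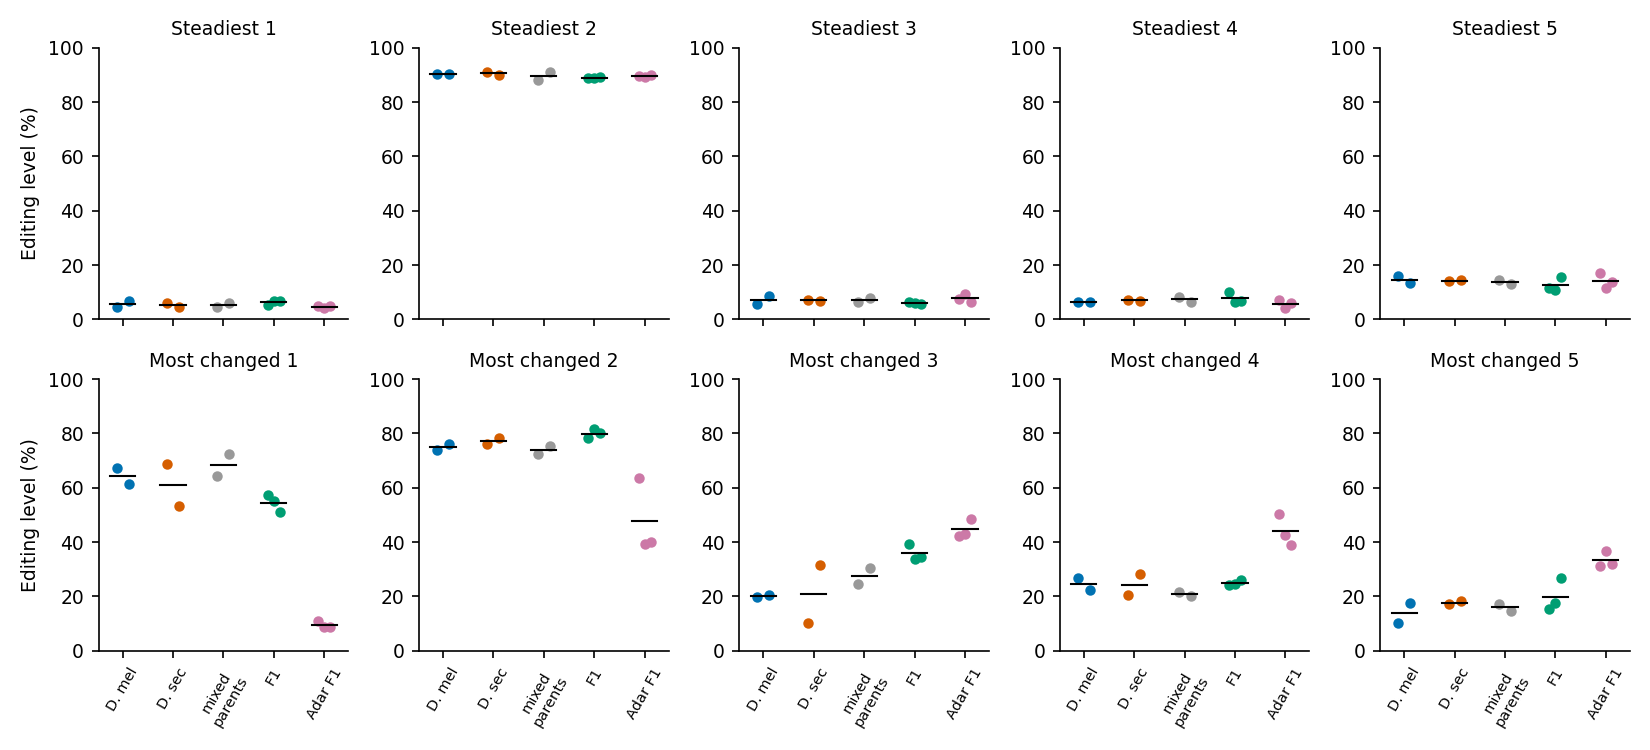
Editing level (%, from 0 to 100) in each library at the 5 sites whose group means varied least (top row, from left 3L 2925287, 2L 9717614, 2R 8336282, 3R 9518140 and 3L 4590704) and the 5 whose group means varied most (bottom row, from left X 19228498, 3L 9826469, 2L 8201337, 3L 7173538 and 2R 8336159), among 127 sites covered everywhere. Points are libraries and lines are group means; in the bottom row the Adar F1 points lie below F1 at the first 2 sites and above it at the other 3.

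Total editing in F1 was compared with that of the mixed parents, in which the same genomes are present in separate flies, to ask whether it differs when the genomes share cells. None of the 170 sites passed the quasi-binomial test at an adjusted p under 0.05, over all 825 sites tested, of which 0.121% passed. At an unadjusted p under 0.05 there were 16 of the 170 and 60 of all 825, limma on arcsine-transformed levels called 0, and Fisher's exact test after pooling reads, with no term for variation among libraries, called 9 (2.67% of all sites). The median difference was 0.384 points (F1 minus mixed parents), and the 95% interval lay within 10 points of 0 at 129 sites. Libraries of the groups did not overlap at 45 sites, 22 higher in F1 (13.9% of all sites) and 23 lower (12% of all), or 26.5% of the 170 against 25.9% of all. The extremes were 2L 3503636, chosen after its values were seen, at 16.2% and 26.3% in the mixed parents and 35.0%, 30.5% and 30.5% in F1 (adjusted p = 0.407), and X 19228498, at 64.4% and 72.5% and 57.5%, 55.2% and 50.9% (adjusted p = 0.407). Neither pair of groups overlapped, and neither difference held after adjustment.

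The alleles of the mixed parents came from separate flies in 1 library, and so repeated the parental comparison with new libraries. At 94 of 128 sites the pooled allele levels were again within 5 points (73.4%), against 38 of 120 diverged sites (31.7%). Over all 248 sites from 5% to under 95%, both sets together, the count was 132 (53.2%). At the sites edited alike the median size of the gap was 3.03 points, and 4 sites exceeded 10 points. Each library taken alone gave 63.3% and 58.6% at the same sites, so pooling reads raised the share. With 1 mixed library left out it was 57.7% (without replicate 1) or 62.3% (without replicate 2), and with at least 100 reads per allele it was 82.3%.

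By test, 7 of the 128 sites differed between alleles in the mixed parents, with D. sechellia above D. melanogaster at 3 and below it at 4, or 5.47%, where 28.6% of all 518 sites tested differed, 11.8% and 16.8% in these directions. Allele levels did not overlap at 48 sites (37.5%, against 58.3% of all sites), 25 with D. sechellia higher (26.8% of all) and 23 with it lower (31.5% of all). At 2L 18182220 the D. sechellia allele read 46.4% and 35.2% and the D. melanogaster allele 20.3% and 24.6% (adjusted p = 3.67e-04). The alleles were apart in both libraries, with a difference of 18.4 points (95% interval 9.45 to 27.3). Its neighbour 2L 18182223 (14.3% and 12.5% against 3.76% and 6.72%) and 2L 16174152 (89.9% and 93.2% against 89.3% and 82.2%) were also higher on the D. sechellia allele. Lower on it were 2R 4791179 (1.28% and 2.70% against 14.1% and 11.7%, adjusted p = 5.77e-04), 3L 9826559, X 1385626 and 2R 10649016. These calls were not stable: without mixed parents replicate 1 none passed and without replicate 2 only 1 did, with the lone library assumed to vary like the hybrids. With no minimum on the level none passed.

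Within F1 hybrids, where both alleles share cells and enzyme, the alleles of the sites edited alike were mostly close. Pooled allele levels were within 5 points at 103 of 125 sites (82.4%), against 51 of 119 diverged sites (42.9%). Over all 244 sites from 5% to under 95%, both sets together, the count was 154 (63.1%). A limit in points is easier to meet at weakly edited sites, and the shares were not matched for level. In F1 the diverged sites covered in every library averaged 35.7%, against 26.4% at the sites edited alike. At the latter the median size of the gap was 2.28 points, and 5 sites exceeded 10 points. In Adar F1 the share was 74 of 88 (84.1%), against 46 of 84 diverged sites (54.8%) and 120 of 172 together (69.8%). The median gap of the sites edited alike was 2.29 points there. Single libraries gave 69.3% ± 1.67 in F1 and 72% ± 3.47 in Adar F1 (SD, n = 3), below the pooled shares as in the mixed parents, and groups of 2 and 3 pooled libraries are not compared here. Sites share clusters and libraries, so no interval over sites is given. Among 119 sites covered on both alleles in mixed parents and F1, 77 were within 5 points in both groups. Another 10 were apart by 5 points or more in both with the same sign, and 1 with opposite signs. Of 79 sites covered in all 3 groups, 50 stayed within 5 points throughout, and 2L 18182220, 3L 9826559 and X 641623 were 5 points or more apart in all 3.

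**Figure D2:**
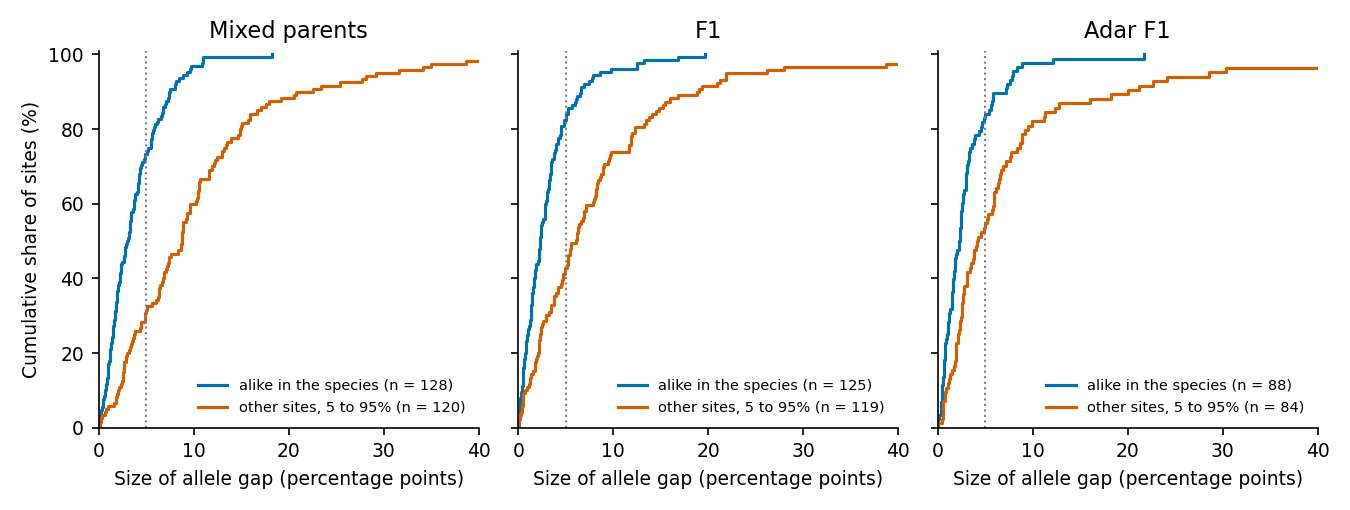
Cumulative share of sites (%) against the size of the gap between pooled allele levels (percentage points, shown up to 40) in the mixed parents, F1 and Adar F1. Blue steps are sites edited alike in the parent species (128, 125 and 88 sites), orange steps the other sites from 5% to 95% (120, 119 and 84), and the dotted line marks 5 points, where the blue steps reach 73.4%, 82.4% and 84.1%.

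The test in F1 called 10 of 125 sites, 8 higher and 2 lower on the D. sechellia allele, or 8%, where 28.2% of all 504 sites tested were called (11.3% higher and 16.9% lower) and 45 of 119 diverged sites were. Allele levels did not overlap between libraries at 25 sites (20%, against 39.5% of all sites). Called gaps ran from 4.40 to 19.0 points. Of the 115 sites not called, 89 had a 95% interval within 10 points of 0 and 13 within 5 points, so gaps of a few points were not detectable at most of them.

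X 641623 had the widest gap in F1. Its D. sechellia allele read 49.6%, 40.8% and 39.7% in the F1 libraries and its D. melanogaster allele 28.6%, 20.4% and 24.2%, with no overlap and a difference of 19.0 points (95% interval 11.8 to 26.2, adjusted p = 7.95e-04). In the separate species it was at 41.1% in D. melanogaster and 42.7% in D. sechellia, although its D. sechellia libraries read 33.0% and 53.8%. Adar F1 showed a gap of the same direction, 44.0%, 47.2% and 42.1% against 34.9%, 17.2% and 18.2% (adjusted p = 0.0242), and the mixed parents one of 7.0 points (adjusted p = 0.209).

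At 3L 4590709 the D. sechellia allele read 82.7%, 77.8% and 82.1% in F1 and the D. melanogaster allele 64.9%, 65.1% and 62.3%. This gap of 16.8 points (95% interval 12.5 to 21.1, adjusted p = 2.18e-05) stood beside a parental gap of 4.19 points, the species being at 75% and 79.2%. In Adar F1 the alleles stood at 79.7% ± 4.13 and 71.1% ± 2.90 (SD, n = 3, adjusted p = 0.0417), and the change of gap did not pass (adjusted p = 0.428). Within the same cluster, 3L 4590685 was higher on the D. sechellia allele by 6.50 points (adjusted p = 0.0449).

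The neighbouring sites 3R 6071146 and 3R 6071158 were also higher on the D. sechellia allele in F1, at 32.4% ± 1.22 against 19.2% ± 0.913 (SD, n = 3, adjusted p = 0.00308) and at 13.8% ± 2.19 against 5.20% ± 2.40 (adjusted p = 0.00390). No gap was called at either in the mixed parents, where the differences were -4.32 and -1.41 points. The remaining calls in this direction were 3L 2941425, 2L 13484558 and 3R 23500584, with differences of 12.8, 6.95 and 4.40 points.

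Lower on the D. sechellia allele in F1 were 3L 9826559 and 3R 4662544. At 3L 9826559 it read 33.1%, 35.8% and 39.9% and the D. melanogaster allele 51.1%, 47.1% and 48.3% (adjusted p = 0.00110), and the mixed parents showed the same order, 34.1% and 37.8% against 46.9% and 43.8% (adjusted p = 0.0266). The separate species had stood at 38.2% and 37.4% there. This was the only site edited alike that was called in both groups. At 3R 4662544 the alleles read 9.58% ± 4.25 and 19.8% ± 4.40 (SD, n = 3, adjusted p = 0.00376), in the direction of its parental gap of -4.91 points.

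The count of 10 fell to 6 without F1 replicate 3 or with a minimum of 20 reads, and to 1 without a minimum on the level. In the last setting sites with almost no G reads enter the estimate of the spread; with the spread taken from sites with at least 10 G and 10 A reads, an alternative chosen after seeing the data, it was 11 with no minimum on the level and 11 with it.

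In Adar F1, 8 of 86 sites differed between alleles, 5 higher and 3 lower on the D. sechellia allele, or 9.30%, where 27.6% of all 337 sites tested did, 9.79% higher and 17.8% lower. Besides X 641623 and 3L 4590709, the D. sechellia allele was higher at X 3847324, 2L 18182220 and 3R 9518140. At X 3847324 it read 25.2%, 16.4% and 16.5% and the D. melanogaster allele 15.8%, 0.974% and 2.13% (adjusted p = 0.0279), the latter spread widely between replicate 1 and the rest. Lower on it were 2L 9717614 (86.7% ± 0.984 against 92.3% ± 0.297, SD, n = 3, adjusted p = 0.00747), 2R 4791179 and 3R 27424738. Allele levels did not overlap at 15 sites (17.4%, against 34.1% of all sites). Without Adar F1 replicate 3 the count was 2, and without a minimum on the level it was 0. Over all groups 20 of 138 tested sites were called between alleles at least once, against 209 of 591 sites in all (35.4%) and 67 of 130 diverged sites (51.5%).

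Adar F1 was compared with F1 to ask how editing at sites alike in both species differed with the mutant Adar. Of 127 sites tested, 44 changed, 35 falling and 9 rising. This share of 34.6% was near that of all 619 sites tested, of which 33.9% changed, 26.3% falling and 7.59% rising, and among the 133 diverged sites 59 changed. The median change was -2.46 percentage points, and in Adar F1 the level stood at a median of 86.1% of that in F1, against 85.2% over all sites and 84.9% over diverged sites. Libraries of the groups did not overlap at 54 sites (42.5%, against 44.9% of all sites), 44 lower (32.6% of all sites) and 10 higher (12.3% of all). Falls had a median of -8.87 points and rises of 13.8 points. Of the 83 sites that did not pass, 69 had a 95% interval within 10 points of 0 and 23 within 5 points. The count ran from 32 without Adar F1 replicate 2 to 54 without Adar F1 replicate 1, and it was 26 on D. melanogaster allele reads alone and 18 on D. sechellia allele reads alone, with fewer sites covered.

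**Figure D3:**
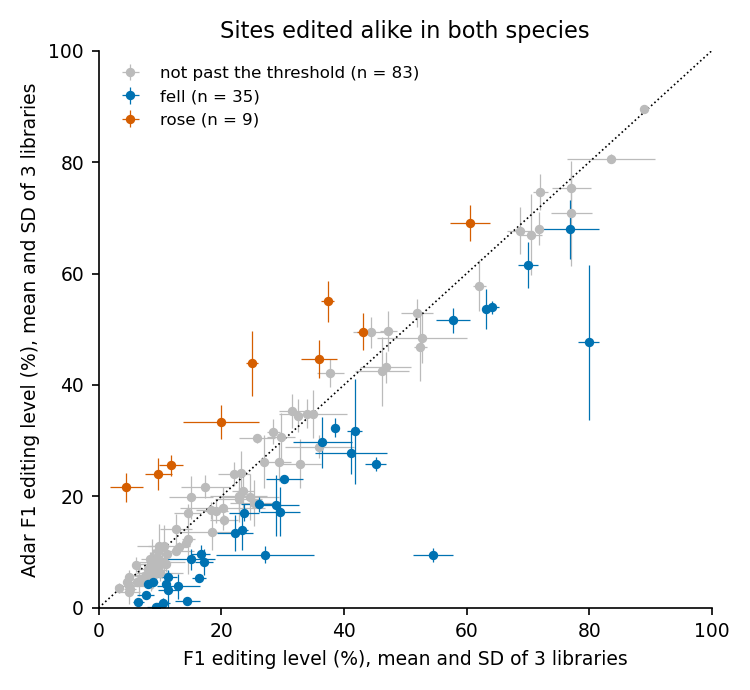
Editing level in Adar F1 against F1 (%, mean and SD of 3 libraries each) at 127 sites edited alike in both species. Blue points fell (35), orange points rose (9) and grey points did not pass the test (83); the dotted line marks equal levels, and more points lie below it (92) than above it (35).

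By parental level, the relative reduction was deepest at weakly edited sites, a description without a test between classes. The median Adar F1 level was 75.4% of F1 at 32 sites from 5% to 10%, where 8 fell and 1 rose. It was 78.3% at 30 sites from 10% to 20% (7 fell, 3 rose), 88.1% at 42 sites from 20% to 50% (13 fell, 4 rose) and 92.2% at 21 sites from 50% to 80% (7 fell, 1 rose). The interquartile ranges overlapped, at 56.6% to 92.8%, 60.8% to 110%, 74.7% to 104% and 88.3% to 98.5% of F1 from the weakest class up. In points the order of these medians was the opposite, with median changes of -1.80, -2.51, -2.96 and -4.24 in the same classes. Over all sites tested, not split by level, 26.3% fell and 7.59% rose. Only 2 sites above 80% were tested, and neither was called. Their median change of -1.18 points lay outside this order.

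X 19228498 lost most of its editing. Its level was 67.4% and 61.5% in D. melanogaster, 68.9% and 53.2% in D. sechellia, 64.4% and 72.5% in the mixed parents and 57.5%, 55.2% and 50.9% in F1, but 11%, 8.91% and 8.70% in Adar F1. The Adar F1 libraries were far below all others, and the change was -45.0 points (95% interval -52.7 to -37.3, adjusted p = 8.32e-07), on 92 to 160 reads per library. Both alleles were low, at 8.26% ± 4.07 for D. melanogaster and 11.3% ± 5.39 for D. sechellia (SD, n = 3), although the D. sechellia allele had only 34 to 44 reads.

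At 3L 9826469 the F1 libraries read 78.2%, 81.6% and 80% and the Adar F1 libraries 63.7%, 39.2% and 40%. All Adar F1 libraries were below F1, with replicate 1 well above its partners, and the change was -32.3 points (adjusted p = 1.26e-04). Both other sites edited alike of its cluster that had Adar F1 reads fell, 3L 9826464 from 7.67% ± 1.43 to 2.24% ± 0.725 (SD, n = 3) and 3L 9826559 from 41.7% ± 1.30 to 31.7% ± 9.44, while 3L 9826584 had no reads in Adar F1. At 3L 9860543 editing went from 12.1%, 16.0% and 15.3% to 0.860%, 1.84% and 0.906%, near the bottom of the scale in every Adar F1 library (adjusted p = 1.67e-06).

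Other named falls were 2R 13262562 (45.2% ± 1.69 to 25.8% ± 1.26), 2R 8808830 (27.1% ± 7.96 to 9.56% ± 1.5), 2L 214328 (41.2% ± 5.84 to 27.8% ± 3.80), 2L 6452387 (29.5% ± 3.31 to 17.3% ± 4.42), 2R 20399841 (16.4% ± 1.14 to 5.39% ± 0.136), 2L 18182220 (28.9% ± 3.75 to 18.4% ± 5.50) and 2R 20798632 (64.1% ± 1.14 to 53.9% ± 1.12) (SD, n = 3 each). Their adjusted p-values ran from 3.65e-06 to 0.0143, and that of 2L 18182220 was 0.0641 without F1 replicate 1 and 0.0626 without F1 replicate 3. At 2R 8808830 the D. melanogaster share of reads moved from 31.6% to 73.1%, but both alleles were lower in Adar F1, by means of 31.0% ± 14.3 to 10.4% ± 2.33 and 25.8% ± 5.06 to 7.85% ± 3.03. Of the 35 falls, 32 had libraries that did not overlap.

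None of the 9 rises had libraries that overlapped between groups. At 3L 7173538 the F1 libraries read 24.3%, 24.6% and 26.1% and the Adar F1 libraries 50.3%, 42.6% and 38.9%, a change of 18.9 points (95% interval 12.5 to 25.4, adjusted p = 3.02e-04). The parents and mixed parents had stood between 20% and 28.1%, so the Adar F1 level was the highest of all groups. At 2R 8336191 the levels were 36.1%, 37.6% and 38.3% in F1 and 51.0%, 55.6% and 58.3% in Adar F1 (adjusted p = 5.60e-04), with both alleles higher, at 55.2% ± 3.35 for D. melanogaster and 55% ± 6.46 for D. sechellia. Its neighbour 2R 8336159 rose from 19.9% ± 6.19 to 33.4% ± 3.07 (SD, n = 3), a call lost on D. melanogaster reads alone (adjusted p = 0.102), and the third of the cluster, 2R 8336282, stood at 6.12% ± 0.443 and 7.71% ± 1.36 and did not pass (adjusted p = 0.263).

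At some rises the mixture of alleles also differed between groups. The adjacent sites 2L 8177946 and 2L 8177947 went from 9.71% ± 2.19 to 24.0% ± 2.81 and from 4.53% ± 2.73 to 21.6% ± 2.68 (SD, n = 3), while the D. melanogaster share of their reads went from 96.1% to 40.2% at the latter. On the D. melanogaster allele alone 2L 8177947 stood at 4.43% ± 3.11 and 22.9% ± 3.06. At 3R 23500441 (11.8% ± 1.91 to 25.6% ± 1.84) the D. melanogaster share went from 61.1% to 0, and the D. sechellia allele stood at 12.1% ± 4.24 and 25.6% ± 1.84. The share moved by over 30 points at 3 of the 9 rises, at 4 of the 35 falls and at 25 of the 146 sites with reads in both groups; its part in these changes was not tested.

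The remaining rises were smaller, 3R 23500600 (60.5% ± 3.28 to 69.2% ± 3.23), 2R 7337823 (43.2% ± 1.00 to 49.5% ± 3.32) and 2L 8201337 (36.0% ± 2.95 to 44.7% ± 3.44) (SD, n = 3). Their adjusted p-values of 0.0220, 0.0293 and 0.0382 passed the threshold, but all 3 calls were lost with limma on arcsine levels (0.0512, 0.0579 and 0.222). They were lost too without F1 replicate 2 (0.117, 0.0977 and 0.142). The site 2L 8201337, whose reads were at least 99.7% of the D. melanogaster allele in all groups with both genomes, had group means of 20.3% in D. melanogaster, 20.9% in D. sechellia, 27.5% in the mixed parents, 36.0% in F1 and 44.7% in Adar F1.

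Of 82 sites covered on both alleles, 52 were lower on both in Adar F1 and 15 higher on both. All 22 called falls among them were lower on both alleles, by medians of -7.80 points on the D. melanogaster allele and -8.97 points on the D. sechellia allele, and all 4 called rises were higher on both, by 8.79 and 12.7 points. Calls were made on summed reads of the alleles, so this likeness in sign is a description. Whether the change differed between alleles was tested by an interaction, which called 0 of 82 sites, where 1.58% of all 316 sites tested passed. Unadjusted p-values were under 0.05 at 6 of the 82 and 30 of all 316 sites, and limma called 1 (3.48% of all sites), X 3847324 (adjusted p = 0.0481), which was also the 1 call without Adar F1 replicate 1. With at least 100 reads of each allele, 4 of 40 sites passed (4.6% of all 174 tested at this depth), X 3847324, 3R 23500584, 2R 20399839 and 2R 20399841, named after their values were seen. The interval of the interaction lay within 10 points of 0 at 39 of the 82.

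**Figure D4:**
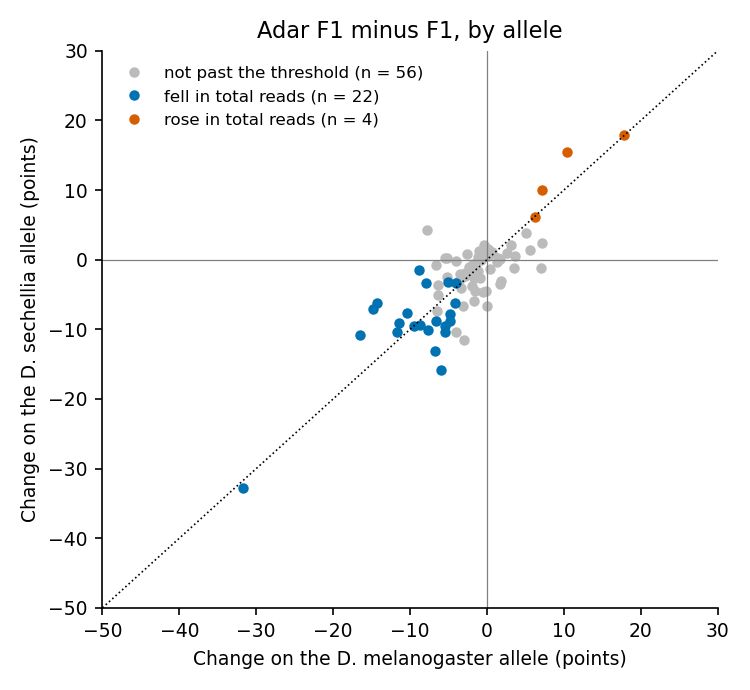
Adar F1 minus F1 level (percentage points) on the D. sechellia allele against the same change on the D. melanogaster allele, at 82 sites edited alike in both species with at least 50 reads of each allele in every library. Blue points fell (22) and orange points rose (4) in reads of both alleles summed, grey points did not pass (56), and the dotted line marks equal change on both alleles.

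Of 81 clusters with a tested site, 25 held a fall and 6 a rise, and none held both. Only 12 clusters had 2 or more calls and so could have; over all sites 36 clusters had 2 or more calls and 4 held both. The sizes differed within clusters. In the cluster with most sites edited alike, 7 between 2R 20802212 and 2R 20802389, the strongly edited 2R 20802225 and 2R 20802388 fell from 76.9% ± 4.64 to 67.9% ± 5.38 and from 63.1% ± 0.458 to 53.6% ± 3.55 (SD, n = 3). Its others did not pass, among them 2R 20802317 at 71.8% ± 0.624 and 68.1% ± 2.94 and 2R 20802382 at 9.50% ± 0.198 and 9.05% ± 0.281.

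The cluster of 5 sites on 3R held 3R 4662906, 3R 4662913 and 3R 4662917, within 11 bases of one another, at parental means of 50.2%, 40.5% and 16.5%. Adar F1 means there were 48.5% ± 4.46, 42.4% ± 6.20 and 15.8% ± 0.827 (SD, n = 3) against 52.7% ± 7.35, 46.2% ± 4.44 and 20.4% ± 2.28 in F1, and none passed. The first of its sites, 3R 4662544, fell from 15.0% ± 3.89 to 8.70% ± 1.92 (adjusted p = 0.0271). The 5 sites within 17 bases on 2R, from 2R 7335111 to 2R 7335128, had no reads in Adar F1. Adjacent adenosines there differed widely in level in every group with reads, 2R 7335111 at 4.79% ± 0.50 and 2R 7335112 at 88.4% ± 4.48 in F1.

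**Figure D5:**
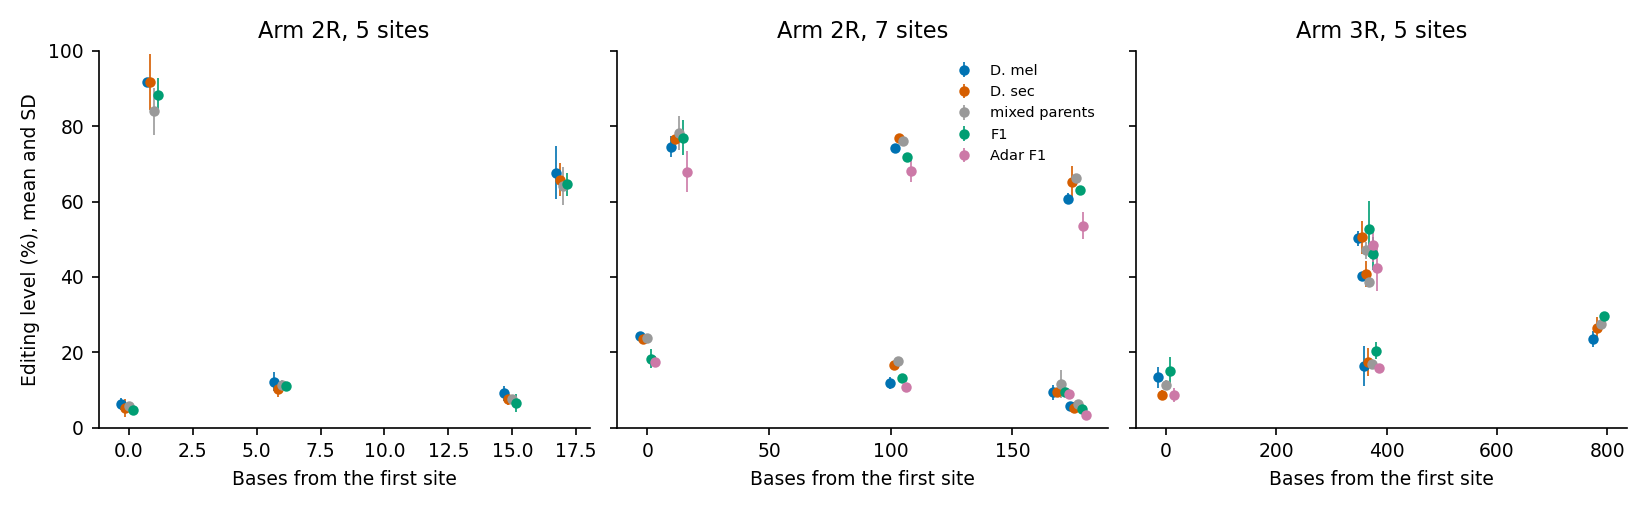
Editing level (%, mean and SD of the libraries of a group) against distance in bases from the first site, in the 3 clusters with most sites edited alike (5 and 7 sites on arm 2R, 5 on 3R). Colours are the 5 groups, drawn side by side at each site where every library of the group had at least 50 reads; the left cluster has no Adar F1 points, and in the middle cluster the Adar F1 means of the strongly edited sites lie lowest.

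The 8 sites with most reads, at most 1 per cluster, ranged from the large falls at 3L 9826469 and 2R 20802388 to the steady 2L 9717614. At 3R 27424738, the deepest, the level was 7.74%, 8.08% and 8.44% in F1 and 5.12%, 3.63% and 4.09% in Adar F1, a fall of few points without overlap (-3.81, 95% interval -5.79 to -1.82, adjusted p = 0.00299). At 3R 16790761 it was 41.1%, 36.8% and 31.5% and 34.9%, 28.1% and 26.3%, with groups that overlapped although the test passed (adjusted p = 0.0487). The groups also overlapped at 3R 14733521, 2L 20346120 and 3L 4590685, where the differences were 3.91, -3.22 and 2.43 points and none passed. Replicate 1 was the highest of the 3 Adar F1 libraries at 70 of the 127 sites and at 24 of the 35 falls. Among the 3 F1 libraries, replicate 1 was the highest at 57 of the 127, replicate 2 at 24 and replicate 3 at 46.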

How the data were processed

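Per the file headers, the deposited tables list, per species sequence, the counts of A and of G reads over 1058 positions, and the authors' percent of G. The submitters' processing notes name BWA and build dm3. How reads were assigned to a species, and how the sites were selected, is not given in the sources used here. Levels were recomputed from the counts, which matched the deposited percent after rounding. The members, named sites and tests were chosen with earlier results of these data known.

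Each comparison used a quasi-binomial logistic regression on the counts (R 4.3.3), with dispersions squeezed across sites by limma 3.58.1 (trend on coverage, at least 1), a deviance F test and Benjamini-Hochberg adjustment over all sites tested, at 0.05. Sites needed 50 reads in every library or allele compared and a mean level of 1%. Fits at the boundary took the prior dispersion. Group comparisons shared 1 spread over all 5 groups, and allele comparisons had the library as a block. Up to 10 called sites in each direction per comparison were named by size of difference, at most 2 per cluster, with the most and least edited, those nearest the median level, the deepest, the steadiest and the most changed. The tests were also run on simulated counts with the same spread setting at every site, and the outcome is not reported here. Alternatives were other coverage and level minimums, limma on arcsine levels, Fisher's exact test, single alleles, stricter members, replicate terms and each library left out. Added after seeing the data were members with replicates within 5 points, and a spread from sites with at least 10 G and 10 A reads.

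Replicate numbers were not taken to pair libraries in the main group comparisons. Same-numbered F1 and Adar F1 libraries correlated in their deviations by 0.146, 0.138 and 0.0435. Same-numbered mixed-parent and F1 libraries correlated by -0.104 and -0.123. Deviations of the 2 mixed-parent libraries mirror each other, so differently numbered pairs of replicates 1 and 2 gave 0.123 and 0.104 by construction. Differently numbered F1 and Adar F1 libraries correlated by -0.140 to 0.0581. Whether F1 and Adar F1 libraries were weakly paired was not tested, and a replicate block was run as an alternative. Python 3.11.15 with numpy 2.4.6, pandas 2.3.3, scipy 1.17.1 and matplotlib 3.10.9 did the rest. Totals of 251870 to 398284 reads per library set the precision.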

Additional observations from a re-analysis of the deposited data

Results flagged for a closer look

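In libraries of a single species, reads assigned to the other species give a signal that no comparison used. At the sites edited alike these were 0.435% and 0.497% of reads in the D. melanogaster libraries and 0.913% and 0.418% in the D. sechellia libraries, above the limit that a count of 0 allows. Over all sites they were 2.10%, 2.08%, 3.76% and 1.29%. At 9 of the 170 sites the share exceeded 5% in a species. Its part in the allele comparisons was not tested.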

How the results depend on the processing

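None of 622 values of named sites under an alternative changed direction, and 103 no longer passed the threshold. The direction could change only with reads of a single allele or with 1 library left out. Under the other alternatives the difference at a site was the same by construction. Of the named calls, 14 of 19 between Adar F1 and F1, 1 of 10 between F1 alleles, 0 of 8 between Adar F1 alleles and 0 of 7 between mixed-parent alleles passed under every alternative in which the site was tested. Of the 19, only 15 were tested on D. melanogaster allele reads alone and 10 on D. sechellia allele reads alone. F1 against mixed parents (0 calls) gave 9 with Fisher's exact test and 0 with a replicate block. Adar F1 against F1 (44) gave 26 on D. melanogaster and 18 on D. sechellia allele reads alone, 22 with members within 2.5 points, 28 with replicates within 5 points (added after seeing the data), 43 with a replicate block, and 32 to 54 with 1 library left out. F1 alleles (10) gave 6 with 20 reads, 1 with no level minimum, 6 within 2.5 points, and 6 to 11 with 1 library left out. Mixed-parent alleles (7) gave 3 with 100 reads, 0 with no level minimum, 4 with a 5% minimum, 3 with limma, 2 within 2.5 points, and 0 to 1 with 1 library left out. Adar F1 alleles (8) gave 0 with no level minimum, 5 with no replicate block, 18 with Fisher's exact test, 4 within 2.5 points, and 2 to 12 with 1 library left out. The change of gap (0) gave 4 with 100 reads, 1 with limma, and 0 to 1 with 1 library left out. With no level minimum and the spread taken from sites with at least 10 G and 10 A reads (added after seeing the data), the allele counts were 11, 5 and 8 in F1, mixed parents and Adar F1. As medians over sites in place of means, the levels were 20.5%, 18.7%, 17.9%, 18.7% and 16.8% in D. melanogaster, D. sechellia, mixed parents, F1 and Adar F1, and within 2.5 points 25.7%, 25.6%, 25%, 25% and 22.2%. With 20 reads D. melanogaster stood at 27.7%. The share of sites with alleles within 5 points was, in mixed parents (73.4%), 82.3% with 100 reads, 78.8% with members within 2.5 points and 57.7% to 62.3% with 1 library left out; in F1 (82.4%), 78.9% with 20 reads, 84.5% with 100 and 77.5% to 79.8% with 1 left out; in Adar F1 (84.1%), 77.3% to 82.2% with 1 left out. The cause of these shifts was not tested. With 2 or 3 libraries a group, gaps of under 5 points were mostly below what the intervals resolve.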
